A study of Mus musculus with 6 samples.

Results

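The genes described here are 10 that tissue macrophages share: the C1q chains C1qa, C1qb and C1qc, the receptor Csf1r, the signalling adaptors Fcer1g and Tyrobp, the lysosomal protein Cd68 and the lysosomal proteases Ctss, Ctsc and Lgmn. They were taken by gene symbol from the array platform's annotation, which pairs 16 of the 45037 probe sets with them, and every gene had at least 1 probe set. Each member was measured in whole liver of untreated female mice aged 8 weeks, 3 of the inbred strain NZB/BinJ (NZB) and 3 of the inbred strain SM/J (SM), on 6 arrays in all. All mice ate chow after weaning at 3 weeks, were fasted for 4 hours, and had the liver flushed with 50 mL of saline before it was frozen. Neither group carries an introduced allele or a treatment, and each strain stands for a whole inbred genome. NZB mice are known for spontaneous autoantibodies against red cells. The labels name the mice of a strain as biological replicates, and the number of arrays limits the precision of every value.

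Macrophages of the liver, the Kupffer cells, sit in the sinusoids and clear particles, immune complexes and dying cells from blood. C1q, assembled from A, B and C chains that macrophages make, binds such targets and starts the classical complement pathway together with the proteases C1r and C1s. Csf1r is the receptor through which the growth factors Csf1 and Il34 keep macrophages alive. Fcer1g and Tyrobp are small membrane adaptors whose cytoplasmic activation motifs pass on signals from Fc receptors and lectins that cannot signal alone. What is taken up is broken down in lysosomes, where Cd68 is a membrane glycoprotein and Ctss (cathepsin S), Ctsc (cathepsin C) and Lgmn (legumain) are proteases.

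Promoter sequences show the start regions of members whose values the results turn on. RefSeq windows (build GRCm38.p6) of 300 bases, from 250 before to 50 from the transcript start on, were matched for 7 of the 10 genes: C1qb, C1qc, Cd68, Fcer1g, Ctss, Ctsc and Lgmn. Those of the neighbouring genes C1qb and C1qc and of the proteases Ctss and Ctsc are printed 5′ to 3′ on the strand of the gene. C1qb lies at chr4:136886151-136886450 and C1qc at chr4:136892865-136893164, both on the minus strand. Ctss lies at chr3:95526536-95526835 and Ctsc at chr7:88277835-88278134, both on the plus strand. Capitals mark matches, on either strand, to GAGGAA, the core bound by the myeloid factor PU.1 (TTCCTC on the other strand), and to a pair of GAAA stretches set 2 bases apart, the element of interferon regulatory factors. No marked stretches overlap in these windows.
C1qb promoter: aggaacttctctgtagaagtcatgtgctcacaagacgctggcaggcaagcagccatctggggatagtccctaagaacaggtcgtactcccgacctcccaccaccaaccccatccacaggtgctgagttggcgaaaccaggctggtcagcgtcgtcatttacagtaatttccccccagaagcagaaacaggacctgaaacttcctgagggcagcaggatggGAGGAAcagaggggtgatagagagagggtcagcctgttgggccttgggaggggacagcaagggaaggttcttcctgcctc
C1qc promoter: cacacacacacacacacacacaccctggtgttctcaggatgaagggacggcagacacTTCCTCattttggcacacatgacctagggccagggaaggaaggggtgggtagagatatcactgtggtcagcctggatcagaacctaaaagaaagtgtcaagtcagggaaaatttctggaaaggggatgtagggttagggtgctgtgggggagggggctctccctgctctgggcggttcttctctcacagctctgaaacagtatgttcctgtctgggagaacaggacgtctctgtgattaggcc
Ctss promoter: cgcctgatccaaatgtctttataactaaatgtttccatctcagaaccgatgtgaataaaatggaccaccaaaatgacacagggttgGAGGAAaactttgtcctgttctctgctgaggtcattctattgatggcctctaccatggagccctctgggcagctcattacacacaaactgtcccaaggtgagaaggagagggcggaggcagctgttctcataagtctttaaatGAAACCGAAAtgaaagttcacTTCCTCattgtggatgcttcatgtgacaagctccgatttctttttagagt
Ctsc promoter: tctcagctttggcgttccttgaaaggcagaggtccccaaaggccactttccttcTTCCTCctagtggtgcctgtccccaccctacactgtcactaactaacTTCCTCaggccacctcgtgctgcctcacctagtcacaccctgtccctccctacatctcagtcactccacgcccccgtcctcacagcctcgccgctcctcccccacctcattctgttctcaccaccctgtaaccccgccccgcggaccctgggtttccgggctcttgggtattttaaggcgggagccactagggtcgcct
GAGGAA was found in 5 of the 8 windows of the members (Lgmn has 2 windows), those of C1qb, C1qc, Cd68, Ctsc and Ctss, and in 28.3% of all 32851 windows of the same length. The paired stretches were found in the window of Ctss and in 3.44% of all windows. The other motif searched, CACGTG, the core of the element bound by the lysosomal regulator TFEB, was found in 1 window of Lgmn and in 7.15% of all windows. The windows are those of the reference build and were not read from NZB or SM mice. A match describes the letters of these windows and was not read as binding.

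Nearly all of these genes were higher in NZB liver than in SM liver. A probe set was called higher or lower where its limma p-value, adjusted over all 45037 probe sets, was under 0.05, and differences are NZB minus SM in log2 expression. Of the 16 probe sets, 14 were higher in NZB, none was lower and 2 did not pass, and the 14 belong to 9 of the 10 genes. Over all probe sets, 6.09% were higher and 8.69% were lower in NZB, 14.8% in all. The 3 NZB arrays lay wholly above the 3 SM arrays for the same number, 14 of 16 members, against 18.2% of all probe sets. The median difference of the members was 0.44, with a range of 0.16 to 1.69 (the highest from a Ctsc probe set near background), and that of all probe sets was 0.023. With the array medians aligned, 11 members were higher and 4.62% of all probe sets were.

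1 library stands apart in a gene outside the members. Xist, transcribed only from the inactivated X chromosome of females, read 12.7, 12.6 and 12.6 in NZB replicates 1, 2 and 3, and 12.8, 7.32 and 12.9 in SM replicates 1, 2 and 3. The 9 probe sets of the Y-linked genes Eif2s3y, Kdm5d and Uty read at most 5.67 on any of the 6 arrays, SM replicate 2 included, and 5.67 is used below as a background reading. The number of members called higher was 12, 9 and 9 without NZB replicates 1, 2 and 3, where 4.21%, 3.91% and 3.29% of all probe sets were. It was 10, 13 and 11 without SM replicates 1, 2 and 3, where 5.11%, 3.63% and 5.51% were. Whole liver was measured, so that more macrophages, more RNA per macrophage and RNA from other cells cannot be told apart for any of these genes.

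**Figure D1:**
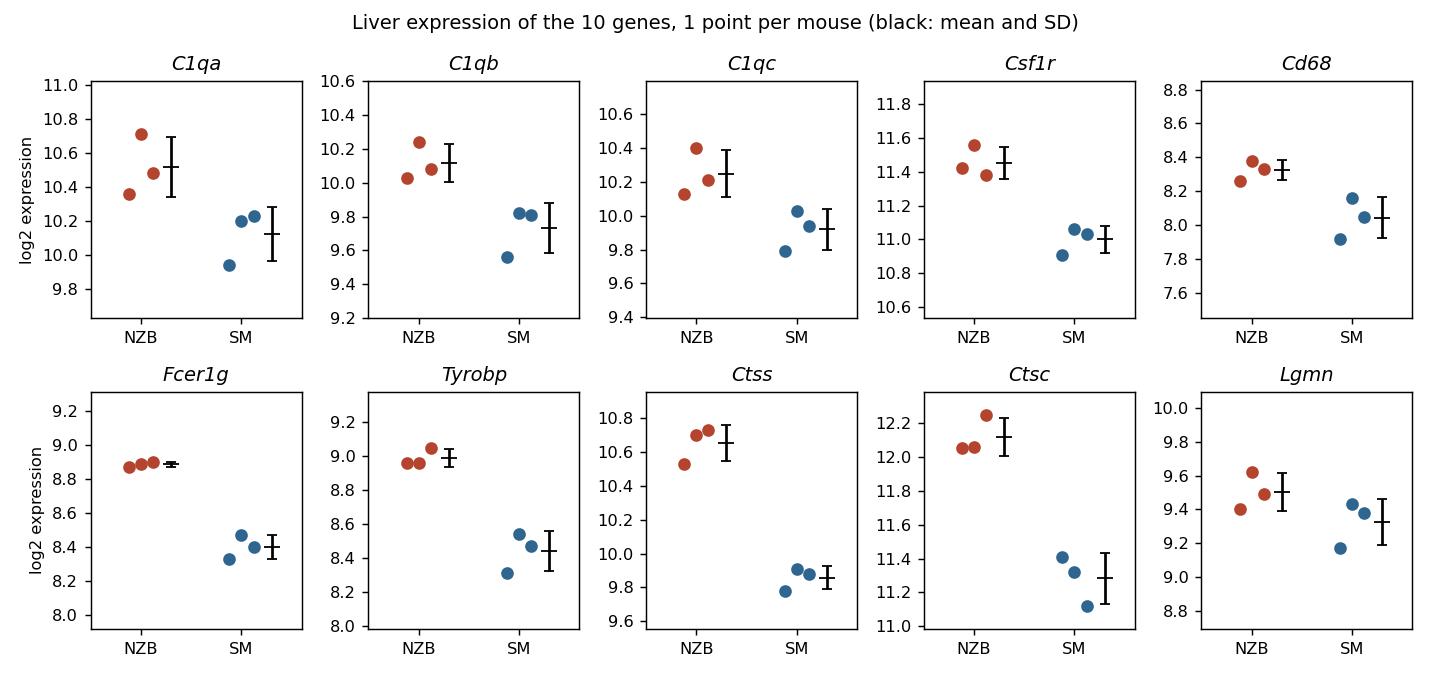
Log2 expression (vertical axis, each panel spanning the same range) of the 10 genes by their brightest probe set, with 1 point per mouse in NZB and SM and the mean and SD of 3 mice in black. The NZB and SM points do not overlap in 9 panels and overlap for Lgmn.

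The C1q chain genes lie side by side on the chromosome in the order C1qb, C1qc, C1qa, and they differed by like amounts. C1qa read 10.36, 10.71 and 10.48 in the NZB mice and 9.94, 10.20 and 10.23 in the SM mice. C1qb, by its brightest probe set, read 10.03, 10.24 and 10.08 in NZB and 9.56, 9.82 and 9.81 in SM. C1qc read 10.13, 10.40 and 10.21 in NZB and 9.79, 10.03 and 9.94 in SM. In all of these the lowest NZB array was above the highest SM array, though by 0.13, 0.21 and 0.10 only, and the range within a strain was as wide as that gap or wider. C1qa was 1.32-fold higher (difference 0.40, SE 0.11, adjusted p = 0.0396), C1qb 1.30-fold (0.38, SE 0.089, adjusted p = 0.0217) and C1qc 1.26-fold (0.33, SE 0.090, adjusted p = 0.0397). The next coding gene after C1qa, the ephrin receptor gene Epha8, differed by 0.09 (adjusted p = 0.389).

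By their brightest probe sets, the 3 C1q chain genes shared the order of the NZB arrays and the lowest SM array. The highest SM array was replicate 3 for C1qa and replicate 2 for C1qb and C1qc. Averaged over the chains, the level was 10.17, 10.45 and 10.26 in NZB replicates 1, 2 and 3 and 9.77, 10.02 and 9.99 in SM replicates 1, 2 and 3. NZB replicate 2 was thus the highest and SM replicate 1 the lowest of the 6. Over all probe sets, calls fell from 6659 to 3741 without NZB replicate 3 and to 4117 without SM replicate 2. Each C1q call too ended without some single arrays. That of C1qa ended without NZB replicate 2 (adjusted p = 0.121), NZB replicate 3 (0.0998), SM replicate 1 (0.0966) or SM replicate 2 (0.0752). That of the brightest C1qb probe set ended without NZB replicate 2 (adjusted p = 0.0780) or NZB replicate 3 (0.0616). That of C1qc ended without NZB replicate 2 (adjusted p = 0.126), NZB replicate 3 (0.0956), SM replicate 1 (0.103) or SM replicate 3 (0.0698), and with the array medians aligned (0.0513). In each of these cases the difference remained positive, between 0.25 and 0.43. Without NZB replicate 3 it was 0.41 for C1qa, 0.40 for C1qb and 0.35 for C1qc, no smaller than with all arrays.

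C1qb has 2 further probe sets, both of a kind the platform marks by name as likely to bind related transcripts. The first read 8.55, 8.50 and 8.55 in NZB and 8.24, 8.39 and 8.23 in SM, a difference of 0.24 (SE 0.066, adjusted p = 0.0404). Its call ended in 8 of the 12 settings that retained it, among them without NZB replicate 1, 2 or 3 and without SM replicate 1 or 3. The second read 9.57, 9.56 and 9.44 in NZB and 9.24, 9.58 and 9.29 in SM. There SM replicate 2 overlapped the NZB arrays, and the difference of 0.16 (SE 0.094, adjusted p = 0.308, 95% confidence interval -0.06 to 0.37) did not pass. The 95% confidence intervals of the C1qb probe sets, 0.18 to 0.58 for the brightest, 0.09 to 0.39 for the first of these and the one given for the second, overlap, and differences among the probe sets were not tested.

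C1q acts with the proteases C1r and C1s and is checked by the C1 inhibitor, which hepatocytes make. Of 3 measured genes of that list, 1 was higher and none lower, against 7.09% higher and 11.2% lower among 18193 genes, each taken by its brightest probe set. The higher gene was C1ra, which read 12.23, 12.15 and 12.30 in NZB and 11.85, 11.74 and 11.84 in SM (0.42, SE 0.067, adjusted p = 0.00382). C1s1 differed by 0.15 (adjusted p = 0.134) and the C1 inhibitor gene Serping1 by 0.06 (adjusted p = 0.588). The next list holds 12 genes: receptors for C1q, for collagen-like proteins or for dying cells, soluble ligands of such receptors (Gas6, Pros1 and Mfge8), and Calr, which encodes calreticulin. Of these, 4 were higher and none lower. With the array medians aligned 2 were lower, and 1 was lower with array weights, without dim probe sets, with the brightest probe set per gene and without SM replicate 3. The higher ones are Cd93 (0.61), the inhibitory receptor Lair1 (0.38), the receptor kinase Tyro3 (0.33, adjusted p = 0.0305) and Calr (0.30, adjusted p = 0.0103). The call of Tyro3 ended without any single array but SM replicate 3. The kinase receptor Mertk, by which macrophages take up dying cells, differed by -0.25 (adjusted p = 0.0587).

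Csf1r was higher in NZB by nearly the same amount on each of its 3 probe sets. Its brightest probe set read 11.42, 11.56 and 11.38 in NZB and 10.91, 11.06 and 11.03 in SM, a 1.37-fold difference (0.45, SE 0.074, adjusted p = 0.00412). The second, marked by name as matching several transcripts, read 10.03, 10.13 and 9.98 in NZB and 9.52, 9.70 and 9.62 in SM (0.43, SE 0.072). Its remaining one read 9.45, 9.54 and 9.43 in NZB and 8.96, 9.06 and 9.07 in SM (0.45, SE 0.065). No NZB array overlapped an SM array on any of them, and all calls held in every setting in which the probe set was retained. The ligand genes differed by -0.01 for Csf1 (adjusted p = 0.945) and 0.16 for Il34 (adjusted p = 0.150). Of 13 measured genes of the ligand and signalling list, 1 was higher and 2 were lower. The higher one was Spi1, which encodes PU.1 and read 8.03, 7.98 and 8.06 in NZB and 7.70, 7.83 and 7.72 in SM (0.27, adjusted p = 0.0208). Its call ended without NZB replicate 1, NZB replicate 3 or SM replicate 1 (adjusted p up to 0.0809). The lower ones encode C/EBP factors that hepatocytes make too: Cebpb at -1.34 (adjusted p = 0.000255) and Cebpa at -0.25 (adjusted p = 0.0435). The call of Cebpa ended without any single array. Pdgfrb, the coding gene next to Csf1r and a receptor of stellate cells, differed by 0.05 (adjusted p = 0.793).

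**Figure D2:**
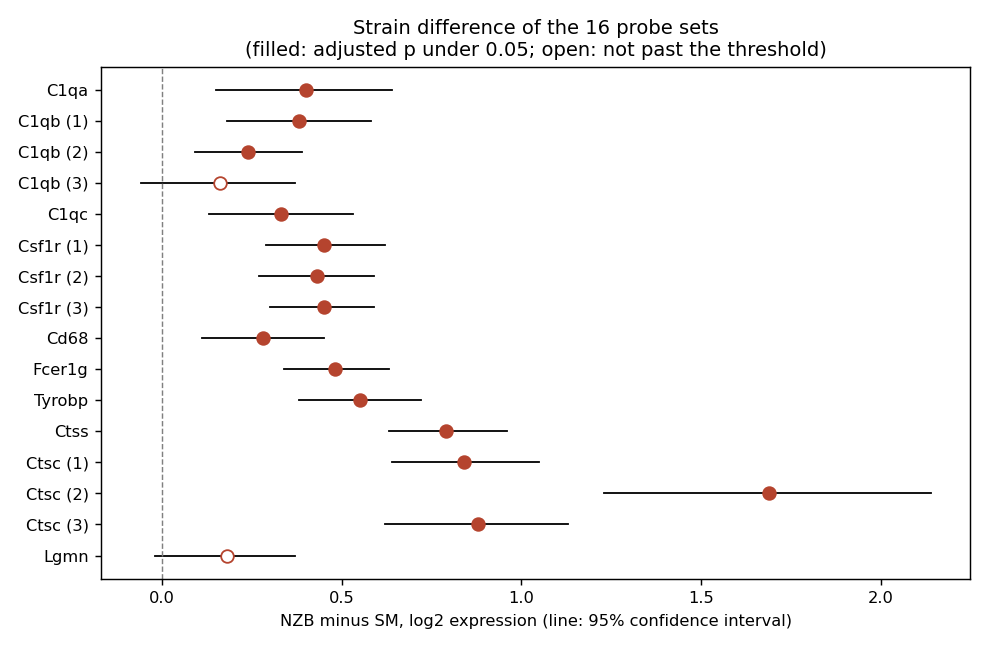
Difference in log2 expression, NZB minus SM, of the 16 probe sets (points) with 95% confidence intervals (lines), with numbers in brackets for the probe sets of 1 gene in the order described. The intervals of C1qb (3) and Lgmn include 0, and Ctsc (2) has the widest.

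Both adaptor genes were higher in NZB with little spread among the mice. Fcer1g, the Fc receptor gamma chain, read 8.87, 8.89 and 8.90 in NZB and 8.33, 8.47 and 8.40 in SM, a 1.40-fold difference (0.48, SE 0.063, adjusted p = 0.00125). Tyrobp, the adaptor DAP12, read 8.96, 8.96 and 9.05 in NZB and 8.31, 8.54 and 8.47 in SM, a 1.47-fold difference (0.55, SE 0.074, adjusted p = 0.00154). The gap between the lowest NZB and the highest SM array was 0.40 for Fcer1g and 0.42 for Tyrobp, several times the SD within a strain. Both calls held in all 14 settings. Of the coding genes on either side of Tyrobp, Lrfn3, which encodes a synaptic adhesion protein, was higher too (8.20, 7.96 and 8.41 in NZB, 7.74, 7.67 and 7.66 in SM, difference 0.50, adjusted p = 0.0132). The other, Hcst, which encodes a related adaptor, read 7.10, 7.12 and 7.15 in NZB and 7.07, 7.12 and 7.18 in SM (adjusted p = 0.991). Next to Fcer1g, the apolipoprotein gene Apoa2 differed by 0.04 (adjusted p = 0.751).

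The receptors that need these adaptors were less uniform. Of 11 measured partners of Fcer1g, 3 were higher and none lower, with a median difference of 0.13. They are Fcgr3, a low-affinity IgG receptor (8.26, 8.32 and 8.37 in NZB, 7.38, 7.47 and 7.51 in SM, difference 0.86), the lectin receptor gene Clec4n, which encodes Dectin-2 (0.59), and Fcgr4, a further IgG receptor (0.55). All were called in every setting that retained them. Fcer1a and Clec4e of this list lay under background on all arrays. Without dim probe sets 5 partners of Fcer1g remained, 3 of them higher, with a median of 0.55. The high-affinity IgG receptor Fcgr1 differed by 0.17 (adjusted p = 0.188). Of 12 measured partners of Tyrobp, 2 were higher and 1 was lower, with a median of 0.11. The higher ones, Klrk1 (0.42) and Klrd1, are receptors of natural killer cells, and Klrd1 lay under background on all arrays. Their calls ended without SM replicate 1, SM replicate 2 or NZB replicate 3, and that of Klrd1 also without NZB replicate 2, with adjusted p up to 0.130 over all settings. The lower one, Pilrb1 (-0.27, adjusted p = 0.0499), lost its call in 9 settings, without NZB replicate 2 or 3 or any SM replicate among them. Sirpb1a, Clec5a and Klra8 of the Tyrobp list lay under background on all arrays too. Without dim probe sets 6 partners of Tyrobp remained, 1 higher and 1 lower, with a median of 0.11. Trem2, a macrophage lipid receptor, differed by 0.06 (adjusted p = 0.614). Downstream of the adaptors, 1 of 11 measured kinases and linkers was higher, Lcp2 at 0.29 (adjusted p = 0.0412), and its call ended without any single array. Syk, the kinase recruited by both adaptors, differed by 0.03 (adjusted p = 0.797).

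The lysosomal members spread the most, from the largest difference to one that did not pass. Ctss, which trims the invariant chain from MHC class II molecules, read 10.53, 10.70 and 10.73 in NZB and 9.78, 9.91 and 9.88 in SM. It was 1.73-fold higher (0.79, SE 0.074, adjusted p = 0.000218), with a gap of 0.62 between the strains' nearest arrays. Ctsc, a dipeptidyl peptidase that activates granule proteases of leukocytes, read 12.05, 12.06 and 12.25 in NZB and 11.41, 11.32 and 11.12 in SM on its brightest probe set. It was 1.79-fold higher (0.84, SE 0.091, adjusted p = 0.000478), with a gap of 0.65. Both genes were called in all 14 settings. Ctsk, the coding gene before Ctss, differed by 0.06 (adjusted p = 0.609), and Rab38, the one after Ctsc, by 0.19 (adjusted p = 0.176).

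The other Ctsc probe sets are dim. One read 7.09, 7.76 and 7.07 in NZB and 6.0, 5.45 and 5.42 in SM, a difference of 1.69 (SE 0.20, adjusted p = 0.000863), and 2 of the 3 SM arrays lay under the background reading of 5.67. With the SM arrays under background set at that reading it was at least 2.88-fold higher in NZB. The platform marks this probe set by name as matching several transcripts. Another read 5.85, 6.23 and 5.87 in NZB and 5.10, 5.24 and 4.97 in SM (0.88, SE 0.11, adjusted p = 0.00121). All 3 SM arrays were under background there, so that with SM set at that reading this probe set was at least 1.24-fold higher in NZB. On all 3 Ctsc probe sets the NZB arrays lay above the SM arrays.

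Cd68 read 8.26, 8.38 and 8.33 in NZB and 7.92, 8.16 and 8.05 in SM, a 1.21-fold difference (0.28, SE 0.076, adjusted p = 0.0385) with a gap of 0.10. Its call ended without NZB replicate 1, 2 or 3 (adjusted p = 0.0589, 0.124 and 0.114), without SM replicate 1 or 3 (0.0976 and 0.0697) and with the array medians aligned (0.0553). Lgmn, which cuts after asparagine and matures other lysosomal proteases, read 9.40, 9.62 and 9.49 in NZB and 9.17, 9.43 and 9.38 in SM. SM replicate 2 lay above NZB replicate 1, and the difference of 0.18 (SE 0.088, adjusted p = 0.226, 95% confidence interval -0.02 to 0.37) did not pass in any of 14 settings. That interval includes differences close to that of Cd68, and a missed threshold does not show that Lgmn was equal in the strains. Genes beside these members differed as well. Mpdu1, before Cd68, was higher in NZB (0.38, adjusted p = 0.00674), and Eif4a1, after it, differed by 0.09 (adjusted p = 0.534). Golga5, which encodes a Golgi protein and follows Lgmn, was lower (-0.89, adjusted p = 6.39e-05), and Rin3, before Lgmn, differed by -0.19 (adjusted p = 0.107).

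The remaining lysosomal proteases did not share the direction of Ctss and Ctsc as a list. Of 11 other cathepsin genes, 1 was higher, 1 was lower and 9 did not pass, with a median of -0.06. The higher one was Ctse, an aspartic protease (1.40, SE 0.17, adjusted p = 0.000802), although another probe set of Ctse was called lower. The lower one was Ctsa, a carboxypeptidase (-0.29, adjusted p = 0.0463), whose call ended without NZB replicate 1, 2 or 3 and without SM replicate 2 or 3. The abundant cathepsins Ctsb, Ctsd and Ctsl differed by -0.06, 0.01 and -0.14 (adjusted p = 0.626, 0.914 and 0.183). Of 6 measured cathepsin inhibitors, 1 was higher, the secreted cystatin C gene Cst3 (0.37, adjusted p = 0.00966). Among 24 other lysosomal hydrolases and membrane proteins, 7 were higher, 3 were lower and 14 did not pass, with a median of 0.03. The higher ones were led by the sialidase Neu1 (0.89), the sulfatase Galns (0.61) and the mannosidase Man2b1 (0.57). The lower ones were the hexosaminidase Hexa (-0.93), the cholesterol transporter Npc1 (-0.81) and the membrane protein Scarb2 (-0.57). Without NZB replicate 1, NZB replicate 3 or SM replicate 2, the higher ones numbered 4, and with the array medians aligned the lower ones numbered 5.

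Partners of Ctss in antigen presentation were higher in 4 of 6 measured cases and none was lower, with a median of 0.84 against 0.021 for all genes. Among all genes 7.09% were higher and 11.2% lower. The higher partners numbered 3 without NZB replicate 2 or 3 or SM replicate 2 or 3, and 5 without SM replicate 1. H2-Aa, an MHC class II chain, read 9.18, 9.56 and 10.01 in NZB and 8.57, 7.91 and 8.03 in SM (1.41). Cd74, the invariant chain that Ctss cuts, read 10.25, 10.68 and 11.04 in NZB and 9.64, 9.13 and 9.03 in SM (1.39), and H2-Eb1 differed by 0.88. These 3 genes were highest in NZB replicate 3 and, in SM, in replicate 1, as was the brightest Ctsc probe set. Ctss was highest in NZB replicate 3 and SM replicate 2, and the C1q chains and Csf1r, by their brightest probe sets, in NZB replicate 2. The fourth called partner, H2-DMa (0.34, adjusted p = 0.0431), was highest in NZB replicate 1. The class II regulator Ciita differed by 0.10 (adjusted p = 0.631).

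**Figure D3:**
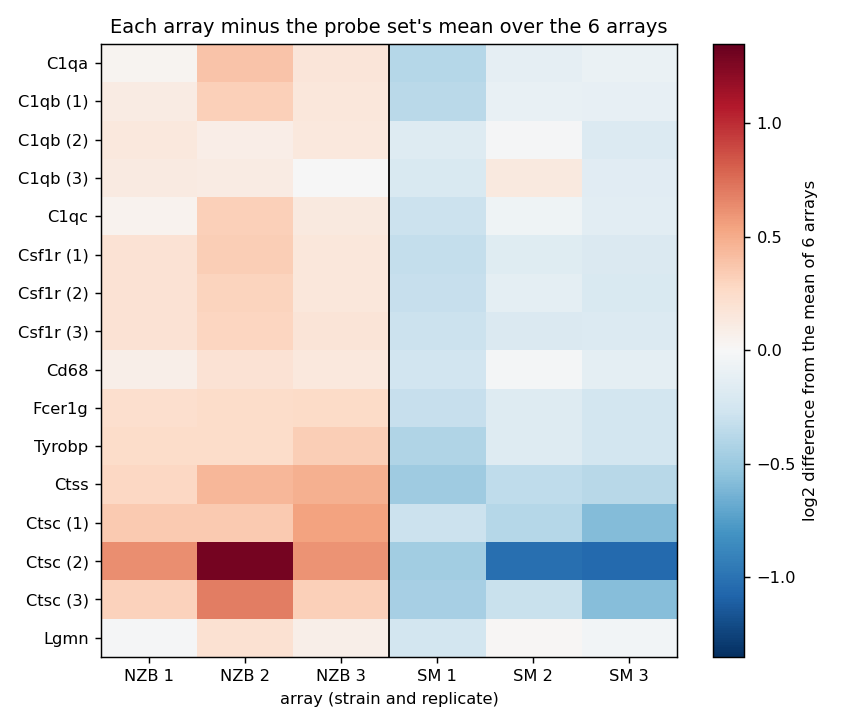
Each array's log2 expression minus the mean of the 6 arrays (colour) for the 16 probe sets (vertical axis), with NZB arrays on the left and SM arrays on the right. NZB replicate 2 is the highest NZB array for 10 probe sets and SM replicate 1 the lowest SM array for 12.

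Within each strain, many member probe sets had the same mouse highest or lowest. NZB replicate 2 was the highest NZB array for 10 of the 16 probe sets. SM replicate 2 was the highest SM array for 12 and SM replicate 1 the lowest for 12. On all 3 Ctsc probe sets the lowest SM array was instead replicate 3. The share of all probe sets with the same array highest or lowest was not counted, and several of the 16 belong to the same gene. These counts therefore do not show that the members moved together apart from the rest of the array. Averaged over the 10 genes by their brightest probe sets, the level was 10, 10.15 and 10.09 in NZB and 9.51, 9.69 and 9.63 in SM. These means are 10.1 ± 0.076 for NZB and 9.61 ± 0.092 for SM (SD, n = 3 each), a difference of 0.47 that is wider than either spread.

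The genes nearest to these patterns were found by the root mean square distance between log2 profiles over the 6 arrays, each centred on its own mean, among 16260 named genes. Nearest to the mean of the C1q chains was Slc15a3, which encodes a lysosomal peptide transporter, at a distance of 0.036. It read 7.17, 7.50 and 7.29 in NZB and 6.80, 6.96 and 7.03 in SM. Calr3, Aurkb, Ccdc149 and Ncapg2 followed at 0.054 to 0.060, with readings of at most 6.22. Nearest to Csf1r was the dipeptidyl peptidase Dpp7 (0.038), nearest to Ctss the IgG receptor Fcgr3 (0.053) and nearest to Ctsc the annexin Anxa4 (0.038). Those for Cd68, Fcer1g, Tyrobp and Lgmn were Pdcd6ip, Tdrd7, Zbtb12 and Trem1, at 0.022 to 0.044. These distances describe 6 arrays in 2 strains and were not tested.

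Markers of the cells that could carry these transcripts differed as well, and not in 1 direction for macrophages. Of 11 measured Kupffer cell markers, 5 were higher, 2 were lower and 4 did not pass, with a median of 0.12. The scavenger protein Cd5l read 10.80, 11.16 and 11.04 in NZB and 10.23, 10.31 and 10.21 in SM (0.75), Adgre1, the macrophage surface receptor gene, differed by 0.65 and the complement receptor Vsig4 by 0.63. Clec4f, a lectin known in mouse as a Kupffer cell marker, read 10.04, 10.26 and 10.12 in NZB and 10, 10.26 and 10.07 in SM (0.03, adjusted p = 0.845). The scavenger receptor Marco read 7.28, 7.52 and 7.40 in NZB and 7.87, 8.43 and 7.88 in SM (-0.66, adjusted p = 0.0155), and Clec1b differed by -0.32 (adjusted p = 0.0499). The call of Marco ended without NZB replicate 1 or 3, and that of Clec1b without NZB replicate 1 or 3 or any SM replicate. The summed level of the list, as log2 of the sum of linear readings, was 13.31 to 13.50 in NZB and 13.12 to 13.23 in SM.

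Leukocyte genes were higher in NZB in 7 of 10 cases and lower in none, with a median of 0.37 and summed levels of 11.75 to 11.94 in NZB and 11.44 to 11.45 in SM. Among all 18193 genes 7.09% were higher and 11.2% lower. Of these leukocyte genes 5 were higher without NZB replicate 2 or 3 or SM replicate 2, and 6 without SM replicate 1. Ptprc, the pan-leukocyte phosphatase CD45, read 8.30, 8.47 and 8.30 in NZB and 7.56, 7.61 and 7.50 in SM (0.80), Cd52 differed by 1.30 and Coro1a by 0.71. The 1 other probe set of Ptprc and the 2 others of Coro1a were not called. Of 8 monocyte markers 3 were higher, Lyz2 at 2.32, Plac8 at 0.91 and F13a1. Chil3, Itgam and F13a1 lay under background on all arrays. Summed levels were 13.63 to 13.68 in NZB and 13.55 to 13.61 in SM. Most of that sum is Fn1, which read 13.36, 13.26 and 13.28 in NZB and 13.4, 13.4 and 13.48 in SM (-0.13, adjusted p = 0.222). The call of F13a1 ended without NZB replicate 2 or 3, without SM replicate 2 or 3 and with the array medians aligned (adjusted p up to 0.117). Of 9 neutrophil markers 3 were higher, S100a8 (1.00), S100a9 (0.51) and Ngp (0.39), with sums of 10.39 to 10.53 in NZB and 10.14 to 10.20 in SM. Of 9 dendritic cell markers only Bst2 was called (0.26, adjusted p = 0.0471, a call lost without any single array but NZB replicate 1), with sums of 11.10 to 11.23 in NZB and 10.99 to 11.04 in SM. B and plasma cell markers were higher in 3 of 9 cases, Ighm (4.35), Jchain (4.28) and Ms4a1 (0.38). Of 10 other probe sets of Ighm, 3 were called higher and none lower. The sums of the list were 13.28 to 14.03 in NZB and 11.95 to 12.25 in SM. Most of the SM sum is Sdc1, which read 11.91, 11.6 and 11.54 in SM and 11.65, 11.79 and 11.71 in NZB (0.04, adjusted p = 0.855). T and natural killer cell markers were higher in 4 of 8 cases, among them Cd3e (0.33) and Cd3d (0.33), with sums of 9.98 to 10.03 in NZB and 9.75 to 9.86 in SM, and Cd3g, called too, lay under background on all arrays. Without SM replicate 2, 1 of the 8 was higher, and without any other single array but SM replicate 3, 2 were. None of these other lists had a member lower in NZB. Ctss, Fcer1g and Tyrobp are also made by some of these cells. The part of each cell type in the difference of any member, Ctsc and Lgmn included, was not tested.

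The cells that make up most of the liver did not move in 1 direction. Of 8 hepatocyte markers 1 was lower, Hnf4a (-0.38, adjusted p = 0.0169, and 0.0513 without SM replicate 2). None of the 3 other Hnf4a probe sets was called. The hepatocyte sums were 17.15 to 17.20 in NZB and 17.15 to 17.17 in SM. These sums are led by Alb, Apoa1, Ttr and Ahsg, which read close to the highest of all deposited values in both strains. Whether readings that high can register a difference was not tested, so the like sums do not show that hepatocyte content was equal. Sinusoidal endothelial markers were higher in 3 and lower in 2 of 10 cases: Stab2 (0.97), Pecam1 (0.34) and Gpr182 (0.31) against Lyve1 (-0.65) and Clec4g (-0.34), and the call of Gpr182 ended without NZB replicate 1 or 3 or SM replicate 2 or 3. Their sums were 12.72 to 12.84 in NZB and 12.68 to 12.77 in SM. No stellate cell marker of 10 and no bile duct marker of 5 passed, the widest differences being those of Col3a1 (0.49), Lrat (-0.37), Krt19 (-0.21) and Epcam (0.14). Without SM replicate 1, 3 stellate cell markers were higher, Col3a1 among them (adjusted p = 0.00874), and with array weights 2 were. Sums were 12.12 to 12.52 in NZB and 12.40 to 12.59 in SM for stellate cells, and 9.75 to 9.85 in NZB and 9.70 to 9.78 in SM for bile duct. Of 4 red cell genes the haem enzyme Alas2 was lower (-1.09, adjusted p = 0.0225), and its call ended without NZB replicate 1 or 3. Red cell sums were 8.42 to 8.96 in NZB and 9.14 to 9.81 in SM.

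**Figure D4:**
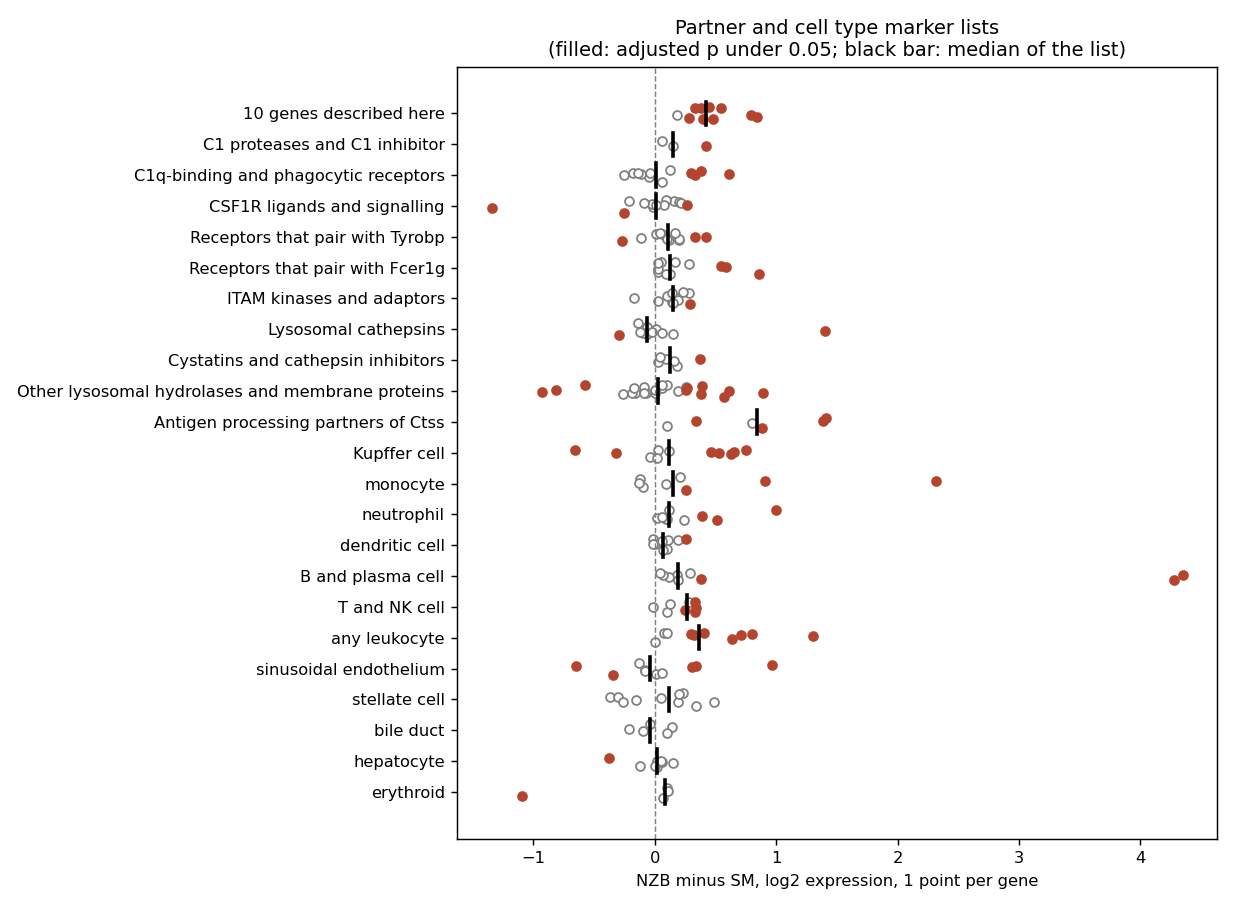
Difference in log2 expression, NZB minus SM (horizontal axis), of each gene in the 10 genes described, 10 partner lists and 12 cell type marker lists, with called genes filled and the median of each list as a black bar. The 10 genes lie at 0.18 and above, while most lists have genes on both sides of 0.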

How the data were processed

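Liver RNA of 6 mice was measured on expression arrays, 1 column per sample, with 0 columns unmatched. Per the submitters' processing notes, the authors made the deposited values with RMA, which corrects background, normalizes arrays and summarizes probe sets. Neither its version nor its settings are given in the sources used here. The scale was taken to be log2: the highest of the deposited values is 14.9, which fits a 16-bit scanner on the log2 scale (at most 16) and exceeds what natural logs allow (11.1). Array medians were 6.60 to 6.66, and no further normalization was applied. RMA compresses differences near background, and sequence variants between strains can weaken single probes, which was not tested.

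Probe sets were named from the platform's annotation, with symbols updated through a RefSeq table (GRCm38.p6). The platform's annotation lists 1 gene for 34945 of the 45037 probe sets, several for 932 and none for 9160. All were fitted with limma 3.58.1 in R 4.3.3 (lmFit, eBayes, strain only), with two-sided p-values adjusted by Benjamini-Hochberg over the whole table, a step tested on simulated data. With 3 against 3 an exact permutation test cannot go below p = 0.1, so none was used. The members and lists were chosen with earlier results of these data known. Lists use each gene's brightest probe set, and listed genes without such a probe set were not analysed here. Some called list genes have other probe sets that were not called, among them Tyro3, Lcp2, Ctsa, Galns, Marco, Ms4a1 and Clec4g. From each list the text names up to 3 called members per direction with the largest differences, or the 2 largest where none was called, and every member, Xist and the nearest profiles. Other genes named, such as neighbours, ligands and flat list members, were chosen after their values were seen. The alternatives were 2 other scalings, trended and robust variances, array weights, 2 filters on probe sets, 2 gene summaries, the replicate number as a block, and each array left out.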

Additional observations from a re-analysis of the deposited data

How the results depend on the processing

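No member was lower in NZB in any of 15 settings, and each member difference remained positive in all of them. The members called higher numbered 9 to 13 with each array left out in turn, and 3.29% to 5.51% of all probe sets were then higher. With all arrays these were 14 and 6.09%. Probe sets called in either direction numbered 3741 to 6386, against 6659 with all arrays. With only the 1 brightest probe set per gene fitted, 9 of 10 genes were higher, against 1541 of all 18193 (8.47%). In either direction 3827 were called. With the mean of a gene's probe sets, 9 of 10 genes were higher, against 1568 of all 18193 (8.62%). In either direction 3461 were called. Both settings test fewer features, which by itself lowers the counts. With the replicate number as a block, 13 members and 5.32% of all probe sets were higher, and 6006 probe sets passed in either direction. The lost member was the first of the 2 further C1qb probe sets described above (adjusted p = 0.0737). Same-numbered arrays deviated together with correlations of 0.037, -0.055 and 0.025, so the numbers were not taken to pair the mice, and not every array correlated best with its own number. Over all settings 11 of the 16 probe sets had the call given in the text, and the others were C1qa, C1qc, Cd68 and 2 probe sets of C1qb. The cause was not tested. The lowest readings, those of 2 Ctsc probe sets, are limited by background.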
